A study of Mus musculus with 27 samples.

Results

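The 50 genes described here build and run the mitotic spindle or time entry into, passage through and exit from mitosis. They were chosen by symbol, from a list of mitosis and spindle genes, out of the 25859 genes of a liver table and the 27178 genes of each of 2 organoid tables, and all 50 were present in each. For description they were divided by textbook function into 11 roles. Messenger RNA was sequenced in 27 mouse libraries, in 9 groups of 3. The liver groups were healthy mice, mice with fibrosis induced by the solvent carbon tetrachloride (CCl4), and CCl4 mice that were also given an extract of the brown seaweed Sargassum japonica. The organoids of the in vivo model were grown from livers of mice given mineral oil, from livers of CCl4 mice, and from livers of CCl4 mice with 24 h of extract added in culture. The organoids of the in vitro model came from healthy liver and were left untreated, exposed to the profibrotic cytokine TGF-β1 (transforming growth factor) for 24 h, or given TGF-β1 for 24 h followed by the extract for 24 h. All organoids were grown in Matrigel in an expansion medium and held for 4 to 5 days in a differentiation medium, so every organoid group shares this culture history. The labels give no strain, sex, age or dose, and do not say how long the mice received the extract. They also do not say whether the 3 libraries of a group came from separate animals or cultures, so p-values measure the spread between libraries, which may be technical.

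Entry into mitosis is driven by the kinase Cdk1 bound to a cyclin A or B, and exit by the anaphase-promoting complex, a ubiquitin ligase that destroys cyclin B and the inhibitor of sister chromatid separation once every kinetochore is attached. Many of the genes are transcribed mainly from S phase to mitosis and are shut down in resting cells, through MuvB-containing complexes that bind the CHR promoter element and through NF-Y, which binds CCAAT boxes. Adult hepatocytes are mostly quiescent but re-enter the cycle after injury, and liver organoids of the kind grown in Matrigel expand as cycling progenitor cells that slow when moved to differentiation medium.

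Promoter windows are shown to describe the CHR and CCAAT letters named above, and any link to the changes below was not tested. RefSeq (GRCm38.p6) held windows of 250 bases before to 50 after a transcription start for 42 of the 50 genes, in 44 windows. Each window was searched on both strands for the CHR letters TTTGAA or TTCGAA and for CCAAT. The CHR letters stood in 77.3% of the 44 windows and in 19.2% of all 32851 RefSeq windows of the same length. For CCAAT the shares were 77.3% and 37.4%, for at least 2 CCAAT 45.5% and 11.7%, and for both motifs together 70.5% and 7.52%. The motifs overlapped each other in 1 of the 44 windows, and 7 genes had neither (Birc5, Mad2l1, Melk, Ncaph, Nuf2, Nusap1 and Pttg1). A match of letters is a description, not a binding site. The windows of cyclins B1 and B2, of Cdk1 and of the anaphase activator Cdc20 are printed 5′ to 3′ on the gene's strand, from 250 bases before to 30 after the start, with the CHR letters and CCAAT in capitals (a CCAAT on the opposite strand appears as ATTGG). They lie on the minus strand of GRCm38.p6 at chr13:100786457-100786736 (Ccnb1), chr9:70421525-70421804 (Ccnb2), chr10:69352883-69353162 (Cdk1) and chr4:118437314-118437593 (Cdc20).
Ccnb1: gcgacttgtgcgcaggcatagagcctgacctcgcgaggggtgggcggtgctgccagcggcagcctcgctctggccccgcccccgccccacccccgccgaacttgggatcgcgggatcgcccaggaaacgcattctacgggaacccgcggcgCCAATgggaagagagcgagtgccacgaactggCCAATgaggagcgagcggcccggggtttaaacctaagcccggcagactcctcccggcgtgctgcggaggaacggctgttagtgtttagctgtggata
Ccnb2: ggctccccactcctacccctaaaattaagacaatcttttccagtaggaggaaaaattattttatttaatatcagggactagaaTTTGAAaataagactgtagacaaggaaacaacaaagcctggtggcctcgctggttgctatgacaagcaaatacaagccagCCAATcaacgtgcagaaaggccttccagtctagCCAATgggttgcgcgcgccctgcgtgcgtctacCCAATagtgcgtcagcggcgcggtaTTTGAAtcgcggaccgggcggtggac
Cdk1: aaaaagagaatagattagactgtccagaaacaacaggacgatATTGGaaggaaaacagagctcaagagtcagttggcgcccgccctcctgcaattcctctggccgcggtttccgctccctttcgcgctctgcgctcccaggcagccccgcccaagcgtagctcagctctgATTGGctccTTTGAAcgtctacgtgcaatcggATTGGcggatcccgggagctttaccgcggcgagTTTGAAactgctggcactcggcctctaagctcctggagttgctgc
Cdc20: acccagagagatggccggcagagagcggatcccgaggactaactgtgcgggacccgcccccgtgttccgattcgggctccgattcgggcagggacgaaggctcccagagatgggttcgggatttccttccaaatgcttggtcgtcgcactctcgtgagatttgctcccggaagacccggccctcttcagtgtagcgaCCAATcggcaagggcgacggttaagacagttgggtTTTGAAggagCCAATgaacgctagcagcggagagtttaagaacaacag
The Ccnb1 window holds 2 CCAAT and no CHR letters, the Ccnb2 and Cdk1 windows hold 2 CHR and 3 CCAAT each, and the Cdc20 window holds 1 CHR and 2 CCAAT.

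Libraries held 45.1 M to 64.8 M reads in the liver table, 45.9 M to 54.8 M in the in vivo organoid table and 44.5 M to 60.6 M in the in vitro organoid table. Levels are given as CPM (reads scaled to library size) on the authors' scaling. Differences are log2 fold changes with their standard errors on the authors' log2 scale, which adds a prior count of 2 reads and so understates the change of genes near 0 reads. Each table was fitted on its 9 libraries with limma, p-values were adjusted over all genes tested, and a gene was called below an adjusted p of 0.05. All 50 genes passed the filter on low counts in the liver and in vitro tables. In the in vivo organoids 49 passed: Ska1, a microtubule-binding kinetochore subunit, ranged from 0 to 0.289 CPM there and was not tested. Hepatocyte markers summed to between 100069 and 140615 CPM in the liver libraries. The organoids instead carried cholangiocyte and progenitor markers (7719 to 13360 CPM over 8 genes) and between 239 and 2418 CPM of hepatocyte markers, and the hepatocyte marker Cyp2e1 was at 0 in every library of 5 of the 6 organoid groups. Library 1 of the oil organoids stood apart from the rest of its group on the first principal component. So did libraries 3 of the untreated and of the TGF-β1 plus extract organoids. Total counts of called genes among the 50 that rest on these libraries are given with and without them. Other counts and named genes are given without them only where stated.

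Almost the whole mitotic programme was higher in CCl4 liver than in healthy liver. Of the 50 genes 49 rose and 1 fell (limma, adjusted p), where 54.2% of the 15037 genes tested were called and 28.7% were called higher. The median log2 difference of the 50 was 6.15 (range -0.72 to 8.06), beside 0.00 for all genes tested. The ratio of mean CPM in CCl4 to healthy liver had quartiles of 33.3 and 112. In 49 genes every CCl4 library lay above every healthy library, as did 30.7% of all genes tested. Summed over the 50 genes, the healthy livers read 66.19, 84.16 and 64.28 CPM and the CCl4 livers 2444, 1944 and 2335 CPM. In the livers of mice that also received the extract the sum was 524, 442.1 and 286.2 CPM, between the other groups, and 49 of the 50 genes were lower than with CCl4 alone. Background for that comparison was 19.1% of genes called and 9.76% called lower, and every extract library lay below every CCl4 library for 49 of the 50 genes against 21.6% of all genes. With libraries scaled by size alone the same 49 genes were called higher with CCl4 and the same 49 lower with extract, while the median gene shifted by -0.23 for extract against CCl4 and called genes split into 640 higher and 3600 lower in place of 1403 and 1468. The comparison of CCl4 with healthy liver and that of extract with CCl4 share the CCl4 libraries. In bulk tissue, a change in the number of dividing cells and a change in RNA per cell cannot be told apart.

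**Figure D1:**
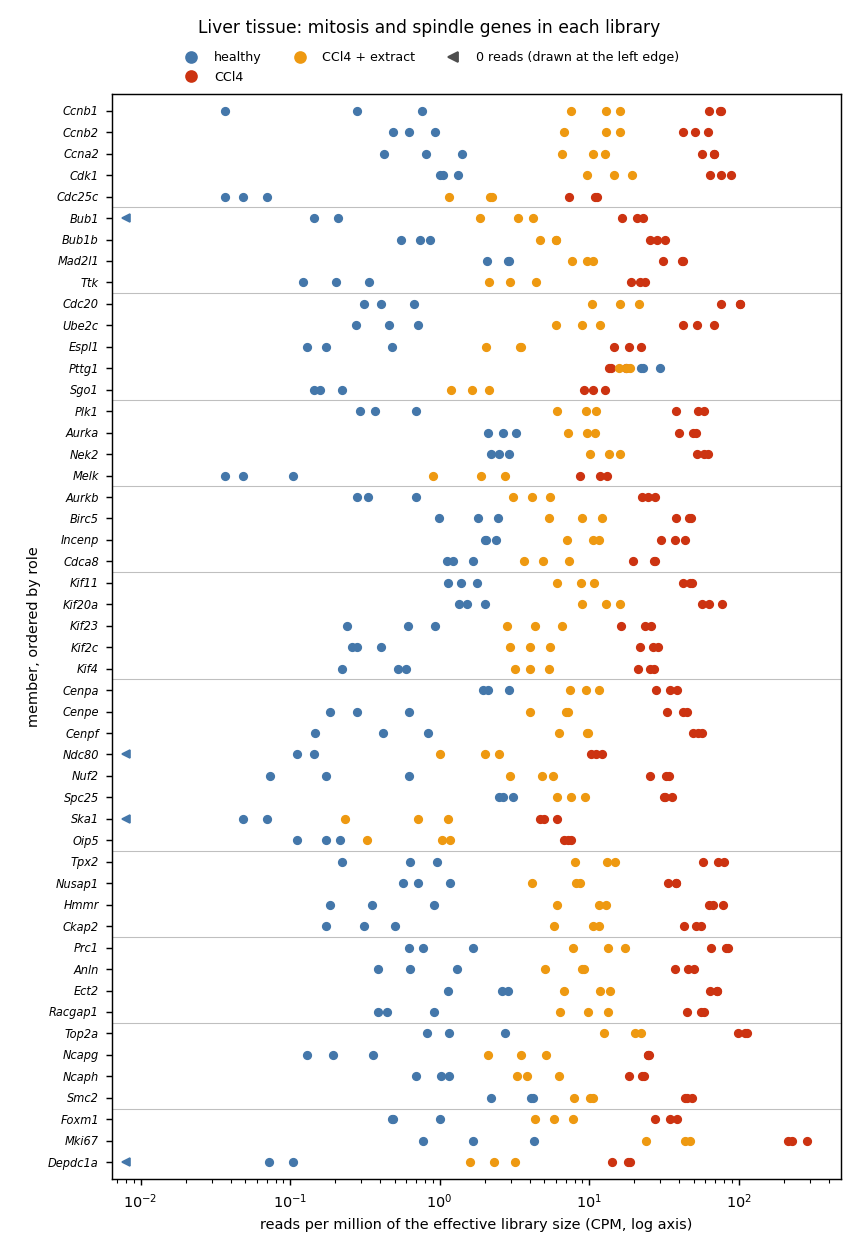
Level of the 50 genes, ordered by role, in the 9 liver libraries (CPM, log axis), with a point per library, colours for the 3 groups and triangles at the left edge for 0 reads. For 49 genes the healthy, extract and CCl4 libraries form 3 separate bands in that order, up to 286 CPM for Mki67 in CCl4 liver, and Pttg1 alone is highest in healthy liver.

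**Figure D2:**
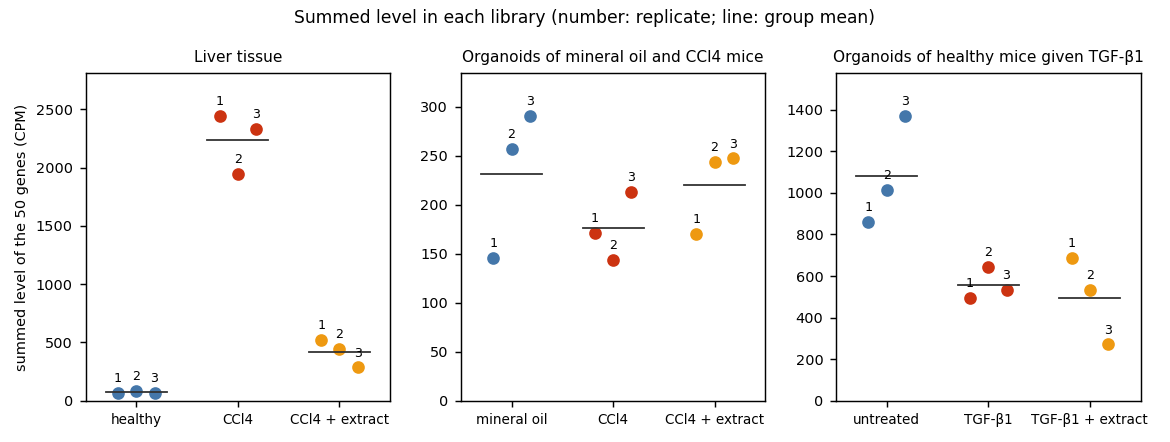
Summed CPM of the 50 genes in each of the 27 libraries, in 3 panels with linear axes that start at 0 and differ in scale, with a numbered point per library and a line at the group mean. The liver groups are separate, with CCl4 highest, the 3 groups of the in vivo organoid model overlap, and every untreated library of the in vitro model lies above the other 6 libraries of its panel.

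Cyclins and Cdk1 are the engine of mitotic entry. Ccnb1, cyclin B1, read 0.281, 0.769 and 0.0369 CPM in the healthy livers, 75.4, 63.3 and 76.1 CPM in the CCl4 livers, and 16.2, 13 and 7.58 CPM with extract. The 3 groups did not overlap, although the 3 healthy values rest on 16, 32 and 2 reads. Its rise with CCl4 was the largest of the 50 genes, at 8.06 ± 0.63 (limma adjusted p = 1.1e-06), and its fall with extract was -2.60 ± 0.63 (adjusted p = 0.014). Leaving out extract library 3 ended the second call, at -2.29 with a limma adjusted p of 0.066. Cdk1, the mitotic kinase itself, went from 1.05, 1.32 and 1.01 CPM to 76.1, 64.5 and 88.8 CPM with CCl4 and to 19.3, 14.6 and 9.73 CPM with extract. These groups were also separate, and the differences were 6.03 ± 0.22 (limma adjusted p = 6.2e-09) and -2.43 ± 0.22 (adjusted p = 5e-05). Ccnb2, Ccna2 (cyclins B2 and A2) and Cdc25c, the phosphatase that switches Cdk1 on, rose by 6.20, 6.28 and 6.79 and fell with extract by 2.18, 2.74 and 2.41. All 5 genes of this role were called in both comparisons.

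The spindle checkpoint holds anaphase back until chromosomes are attached. Its kinase Bub1 had 0.21, 0.144 and 0 CPM in healthy livers, 23, 16.7 and 21 CPM in CCl4 livers and 4.25, 3.34 and 1.86 CPM with extract. No library of one group reached the range of another. The differences were 7.41 ± 0.56 (limma adjusted p = 9.1e-07) and -2.74 ± 0.56 (adjusted p = 0.0063). With a prior count of 0.5 in place of 2 the second became an adjusted p of 0.053 for Bub1. The other kinase Ttk (6.47) and the Cdc20 inhibitors Bub1b (5.27) and Mad2l1 (3.85) also rose with CCl4, and all 4 genes of the role fell with extract, Mad2l1 by 2.03, among the smallest of the called falls.

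Anaphase genes included the 1 fall of the 50 and one of the 3 largest rises. Cdc20, which activates the anaphase-promoting complex, measured 0.403, 0.673 and 0.313 CPM in healthy livers, 103, 76.2 and 103 CPM in CCl4 livers and 21.7, 16 and 10.4 CPM with extract. Per kilobase of exon it was the most abundant of the 50 transcripts in CCl4 liver, at a mean of 50.4 CPM per kb, followed by Ccnb2 at 33.9. Its rise of 7.61 ± 0.28 (limma adjusted p = 7.2e-09) was the third largest, and it fell with extract by 2.60 (adjusted p = 0.00014). Ube2c (6.78), the ubiquitin-conjugating enzyme of that complex, Espl1 (6.11), the protease separase, and Sgo1 (5.70), the protector of centromeric cohesion, rose with CCl4. With extract they fell by 2.63, 2.63 and 2.71.

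Pttg1, which encodes securin, the inhibitor of separase, was the exception. It read 22.2, 22.9 and 30 CPM in healthy livers, 14, 13.7 and 17.8 CPM in CCl4 livers, and 18.9, 17.8 and 15.9 CPM with extract. Every CCl4 library lay below every healthy library, and the extract libraries overlapped the CCl4 range. The fall with CCl4 was -0.72 ± 0.14 (limma adjusted p = 0.0013), and the difference between extract and CCl4 was 0.22 ± 0.14 (adjusted p = 0.33). When libraries were scaled by their size alone, the fall of Pttg1 was -0.33 with a limma adjusted p of 0.078. On that scaling the median gene shifted by 0.38 and the split of called genes was 7261 higher and 1384 lower, in place of 4314 and 3829. In healthy liver Pttg1 stood at 12.5 CPM per kb, and the next of the 50 genes, Aurka, at 1.06.

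All 4 mitotic kinases rose. Plk1, the polo-like kinase that acts on centrosomes, kinetochores and the cleavage furrow, measured 0.368, 0.697 and 0.295 CPM in healthy livers, 59.1, 38.3 and 53.7 CPM in CCl4 livers and 11.2, 9.61 and 6.12 CPM with extract. The groups were separate, with differences of 6.74 ± 0.30 (limma adjusted p = 1.7e-08) and -2.50 ± 0.30 (adjusted p = 0.00024). Aurka, the centrosomal Aurora kinase, rose by 4.12, Nek2, which parts the centrosomes, by 4.51, and Melk by 6.84. These 3 fell with extract by 2.35, 2.14 and 2.69.

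The chromosomal passenger complex corrects faulty attachments at the centromere and then moves to the midzone. Its kinase Aurkb read 0.281, 0.697 and 0.332 CPM in healthy livers, 24.7, 22.6 and 27.6 CPM with CCl4 and 5.46, 4.13 and 3.1 CPM with extract, again in 3 separate bands. It rose by 5.82 ± 0.29 (limma adjusted p = 3.7e-08) and fell with extract by 2.58 (adjusted p = 0.00019). The scaffold Incenp, the survivin gene Birc5 and Cdca8 (borealin) rose by 4.08, 4.72 and 4.18. Incenp had one of the 3 smallest called falls with extract, at -1.93 ± 0.19 (limma adjusted p = 7.2e-05): its libraries read 43.7, 30.2 and 37.5 CPM with CCl4 and 11.6, 10.6 and 7.17 CPM with extract.

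The mitotic kinesins are motors that slide, bundle or shorten microtubules. Kif11, the motor that pushes spindle poles apart, measured 1.4, 1.78 and 1.14 CPM in healthy livers, 47.5, 42.6 and 49 CPM in CCl4 livers and 10.8, 8.86 and 6.07 CPM with extract. Its differences were 4.99 ± 0.21 (limma adjusted p = 1.3e-08) and -2.47 ± 0.21 (adjusted p = 3.8e-05), with no overlap of groups. The other 4 motors rose by 5.27 (Kif23), 5.32 (Kif20a), 5.77 (Kif4) and 6.21 (Kif2c, a microtubule depolymerase) and were all called lower with extract.

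Among the 8 centromere and kinetochore genes the rise was uneven. Ndc80, which binds microtubule ends, had 0, 0.144 and 0.111 CPM in healthy livers, 11.2, 10.3 and 12.2 CPM with CCl4 and 2.02, 2.5 and 1.01 CPM with extract. The 3 groups were separate, and the differences were 6.82 ± 0.51 (limma adjusted p = 8.1e-07) and -2.68 ± 0.51 (adjusted p = 0.0041). Its partners Nuf2 and Spc25 rose by 6.93 and 3.59, and Spc25 was the smallest of the 49 rises. Spc25 read 2.49, 3.08 and 2.65 CPM in healthy livers and 32.3, 31.8 and 35.9 CPM with CCl4. Cenpe, a kinetochore motor, and Cenpf rose by 6.80 and 6.99, and Cenpa, the histone variant that marks centromeres, by 3.85. The 2 largest falls with extract were in this role. Oip5, needed to load Cenpa, went from 6.83, 7.24 and 7.63 CPM with CCl4 to 1.04, 1.17 and 0.329 CPM with extract, a fall of -3.21 ± 0.40 (limma adjusted p = 0.00033) to 11.7% of the CCl4 mean. Ska1 went from 5.03, 4.73 and 6.07 CPM to 0.723, 1.14 and 0.233 CPM, a fall of -3.09 ± 0.52 (limma adjusted p = 0.002). Cenpa had the smallest called fall, from 34.6, 28.2 and 39 CPM to 11.7, 9.52 and 7.44 CPM (-1.83 ± 0.20, limma adjusted p = 0.00014), and kept 28.2% of the CCl4 mean.

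Spindle assembly factors nucleate and bundle microtubules. Tpx2, the activator of Aurora A, read 0.631, 0.962 and 0.221 CPM in healthy livers, 79.3, 57.4 and 72.7 CPM in CCl4 livers and 14.9, 13.2 and 8.06 CPM with extract. The groups stood apart, by 6.96 ± 0.40 (limma adjusted p = 8.7e-08) and -2.56 ± 0.40 (adjusted p = 0.0011). Nusap1, Ckap2 and Hmmr rose by 5.47, 7.20 and 7.33, the role with the highest median of the 11 (7.08), and fell by 2.45, 2.48 and 2.84.

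Cytokinesis genes divide the cell after anaphase. Prc1, which bundles midzone microtubules, measured 0.772, 1.68 and 0.627 CPM in healthy livers, 82.5, 65.7 and 85.2 CPM with CCl4 and 17.3, 13.3 and 7.85 CPM with extract. Its groups were separate, with differences of 6.31 ± 0.34 (limma adjusted p = 5e-08) and -2.66 ± 0.34 (adjusted p = 0.00033). The furrow genes Anln, Ect2 and Racgap1, an actin-binding scaffold and a pair of regulators of the GTPase RhoA, rose by 5.94, 5.06 and 6.52 and fell with extract by 2.55, 2.74 and 2.49.

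Chromosome structure was represented by topoisomerase and condensin genes. Top2a, which untangles sister DNA, read 1.16, 2.72 and 0.829 CPM in healthy livers, 114, 98.4 and 110 CPM in CCl4 livers and 22.4, 20.2 and 12.5 CPM with extract. Differences were 6.24 ± 0.34 (limma adjusted p = 6.6e-08) and -2.59 ± 0.34 (adjusted p = 0.00044), without overlap. Of the condensin subunits, Ncapg rose by 6.66, Ncaph by 4.45 and Smc2, shared by condensin I and II, by 3.76, the second smallest rise. Smc2 read 4.09, 4.21 and 2.21 CPM in healthy livers and 49, 44.1 and 45 CPM with CCl4. Ncapg had the third largest fall with extract, from 25.3, 24.8 and 24.9 CPM to 5.17, 3.52 and 2.11 CPM (-2.88 ± 0.34, limma adjusted p = 0.00021).

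The remaining genes are a transcription factor and markers of cycling cells. Mki67, the gene of the Ki-67 antigen found in all cycling cells, went from 1.68, 4.28 and 0.774 CPM in healthy livers to 286, 215 and 227 CPM with CCl4 and to 47.3, 43.7 and 24.1 CPM with extract. The differences were 7.05 ± 0.46 (limma adjusted p = 2.5e-07) and -2.71 ± 0.46 (adjusted p = 0.002), and no groups overlapped. Foxm1, the factor that drives transcription of many of these genes, measured 0.491, 1.01 and 0.479 CPM, then 38.9, 27.4 and 35 CPM, then 7.82, 5.81 and 4.36 CPM. It rose by 5.67 ± 0.28 (limma adjusted p = 3.5e-08) and fell by 2.51 (adjusted p = 0.00018). Depdc1a had the second largest rise, from 0.105, 0.0721 and 0 CPM to 18.7, 14.2 and 18.2 CPM (7.67 ± 0.43, limma adjusted p = 7.9e-08). Its ratio of means, 288, was the highest of the 50 genes and rests on few reads in healthy liver.

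Extract-treated livers had not returned to the healthy level. Of the 50 genes 49 were higher than in healthy liver and Pttg1 was lower (limma, adjusted p), with a background of 34.8% of genes called and 21.1% called higher, and the median difference was 3.51. The largest were Ccnb1 at 5.46 ± 0.63, Cdc20 at 5.01 ± 0.28 and Depdc1a at 4.80 ± 0.43. The smallest were Smc2 at 1.49, Spc25 at 1.46 and Pttg1 at -0.50 (limma adjusted p = 0.018). The Pttg1 call was lost without healthy library 3 (adjusted p = 0.057), without extract library 3 (0.075) and on library size alone (0.1), where called genes split into 3823 higher and 840 lower in place of 3180 and 2048. Within the extract group library 3 was the lowest for all 50 genes and library 1 the highest for 43. In the CCl4 group library 2 was the lowest for 47.

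Markers of other cells moved in all 3 liver comparisons. In CCl4 against healthy liver, 8 of 8 cholangiocyte and progenitor markers were called higher and their sum went from 54.1 to 76.7 CPM to 259 to 506 CPM. Macrophage and Kupffer cell markers were higher for 8 of 10 (486 to 646 CPM, then 982 to 1143 CPM), stellate cell and myofibroblast markers for 8 of 9 (219 to 269 CPM, then 798 to 983 CPM), neutrophil markers for 6 of 7 tested and B and plasma cell markers for 5 of 6. The summed B and plasma cell markers overlapped, at 9.71 to 39.2 CPM in healthy and 17.4 to 20.4 CPM in CCl4 liver. Sinusoidal endothelial markers were higher for 2 of 7, T and NK cell markers for 1 of 8, and 1 of 4 erythroid markers tested was lower. Hepatocyte markers were lower for 5 of 9. With extract, 4 of 8 cholangiocyte and progenitor markers (155 to 191 CPM), 2 of 9 stellate markers (535 to 666 CPM) and 1 of 10 macrophage markers (903 to 1144 CPM) were called lower than in CCl4 liver, and 4 of 9 hepatocyte, 2 of 4 erythroid and 1 of 7 neutrophil markers higher. In extract-treated against healthy liver 41 markers were higher and 4 lower of 68 tested: all 8 cholangiocyte and progenitor, 9 of 9 stellate, 7 of 7 neutrophil, 8 of 10 macrophage and 5 of 6 B and plasma cell markers were higher, and 3 of 9 hepatocyte markers lower. Of 4 erythroid markers 3 were higher and 1 lower, 1 of 8 T and NK cell markers was higher, and no sinusoidal endothelial marker was called. At 0 in every library of a group was Hemgn, an erythroid marker, in healthy liver. The part of these cells in the result was not tested. The exons of 11 of the 50 genes overlap a protein-coding gene on the opposite strand, among them Ccna2, Cdc20, Kif4 and Prc1, and Foxm1 overlaps Gm44596 and Tex52 on its own strand. Among the 11, Nusap1 and Oip5 overlap each other, and Kif20a overlaps Cdc23, a gene of the anaphase-promoting complex list. The library kit keeps strand but the strand setting of the counting was not found in any source at hand.

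Other cell-cycle genes of the liver, 122 in 7 lists, moved in part with them. With CCl4, 89 rose and 8 fell (limma, adjusted p), with a median of 1.30, so 79.5% were called beside 54.2% of all genes. The lists nearest the spindle moved most: 20 of 21 other spindle, centrosome and cytokinesis genes (median 4.80) and 27 of 30 other centromere and kinetochore genes (median 2.70) rose. Kif18b and Kifc1, both mitotic kinesins, rose by 6.82 and 6.49, and the kinetochore genes Kntc1 and Knstrn by 6.78 and 6.33. The phosphatase gene Cdkn3 rose by 6.97 and Pkmyt1, an inhibitory kinase of Cdk1, by 4.06, within a list of 10 Cdk inhibitors and inhibitory kinases of which 8 rose. Of 18 condensin and cohesin genes 11 rose (Sgo2a by 6.40, Esco2 by 5.05). Subunits and regulators of the anaphase-promoting complex split into 9 higher and 3 lower of 17, with a median of 0.46. Within it Fbxo5, the inhibitor of that complex, rose by 2.80 and Ube2s, its chain-elongating enzyme, by 1.29. The MuvB, DREAM and E2F list had 9 higher and 4 lower of 18 (Rbl1 3.04, E2f7 2.60), and 5 of 8 G1 cyclins and kinases rose (Ccnd1 2.84, Ccne1 2.80).

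With extract 83 of the 122 genes were called lower than in CCl4 liver and 1 higher (limma, adjusted p), 68.9% beside 19.1% of all genes. Of the centromere and kinetochore list 29 of 30 fell, led by Kntc1 at -2.84 and Knl1 at -2.74, and of the spindle list 18 of 21, led by Kif14 at -2.91 and Fam83d at -2.78. Of the other lists 11 of 18 condensin and cohesin genes (Esco2 -2.73), 8 of 18 MuvB, DREAM and E2F genes (E2f7 -2.24, E2f8 -2.05), 8 of 17 anaphase-promoting complex genes (Fbxo5 -1.71), 5 of 10 Cdk inhibitors and inhibitory kinases (Cdkn3 -2.11) and 4 of 8 G1 genes (Ccne1 -2.55) fell. Against healthy liver, 56 of the 122 genes were higher and 6 lower in extract-treated liver (limma, adjusted p). Of all genes tested 34.8% were called in that comparison and 21.1% called higher. The largest of these differences from healthy liver included Cdkn3 (4.86), Kif18b (4.25) and, on the lower side, E2f8 (-1.49).

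In organoids grown from these models the programme did not follow the liver. Of the 49 genes tested, 1 was higher and 5 were lower in organoids from CCl4 mice than in those from oil-treated mice (limma, adjusted p), where 40.2% of the 14836 genes tested were called and 19.8% called lower. The median difference was -0.32. The summed level of the 50 genes was 145.6, 256.7 and 290.6 CPM in oil organoids, 171.6, 143.8 and 213.2 CPM in CCl4 organoids and 170, 243.4 and 247.2 CPM after extract. Per kilobase, the leading transcripts in oil organoids were Pttg1 at 8.92, Incenp at 5.11 and Kif23 at 3.74 CPM per kb. Tables were scaled separately, so levels set across them are a description.

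**Figure D3:**
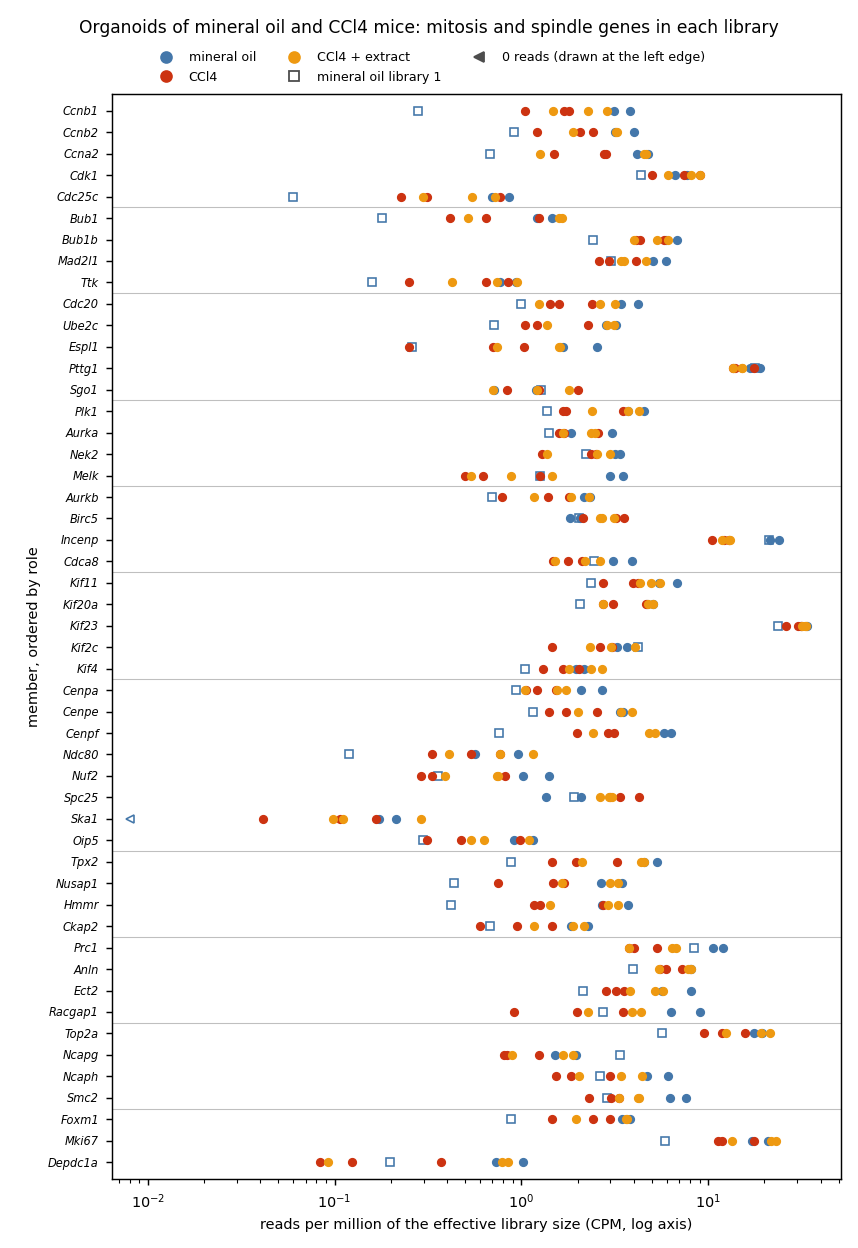
Level of the 50 genes, ordered by role, in the 9 libraries of the in vivo organoid model (CPM, log axis), with a point per library and an open square for oil library 1. The groups overlap for most genes, and oil library 1 lies under the other oil libraries for Ccnb1, at 0.279 CPM against 3.15 and 3.83 CPM.

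The called genes came from 5 roles. Incenp, the passenger complex scaffold, read 21.1, 21.3 and 23.9 CPM in oil organoids, 12.1, 10.5 and 12.9 CPM in CCl4 organoids and 11.9, 12.9 and 13.1 CPM with extract. Its oil libraries lay above all others, with a difference of -0.90 ± 0.11 for CCl4 against oil (limma adjusted p = 0.00053). Prc1 went from 8.37, 10.6 and 12 CPM to 3.77, 4.02 and 5.35 CPM and read 3.75, 6.41 and 6.71 CPM with extract, with oil again above all others (-1.23 ± 0.26, limma adjusted p = 0.0072). Spc25 moved the other way, from 1.91, 1.35 and 2.08 CPM to 4.25, 2.98 and 3.38 CPM (0.98 ± 0.22, limma adjusted p = 0.0092), and was the 1 gene of the 49 called higher. Melk (-1.63 ± 0.53, limma adjusted p = 0.038), Ncapg (-1.17 ± 0.39, 0.043) and Cdca8 (-0.79 ± 0.27, 0.049) were lower near the threshold. Melk read 1.26, 2.97 and 3.49 CPM with oil and 0.622, 0.5 and 1.26 CPM with CCl4. Cdca8 read 2.45, 3.08 and 3.92 CPM with oil and 1.78, 1.48 and 2.12 CPM with CCl4. The groups of Cdca8 did not overlap, and those of Melk met at 1.26 CPM. Ncapg read 3.39, 1.52 and 1.97 CPM with oil and 0.808, 0.833 and 1.24 CPM with CCl4. Its highest value was in oil library 1, and without that library Ncapg was not called. Every CCl4 library lay below every oil library for 5 of the 49 genes, against 21.9% of all genes tested. Of the cholangiocyte and progenitor markers 6 of 8 were called lower than in oil organoids (7719 to 8448 CPM summed, against 10442 to 11679 CPM), and of 7 hepatocyte markers tested 4 were higher and 1 lower. Their part in the result was not tested.

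Oil library 1 was the lowest of its group for 44 of the 50 genes. It had a first principal component of -38.6 beside -120 and -131.7 for libraries 2 and 3. Its sum of macrophage markers was 28 CPM against 113 and 116 CPM, with 8 of the 10 markers, Adgre1, C1qa and C1qb among them, at 0 in all 3 oil libraries. Hepatocyte markers summed to 1484 CPM in library 1 against 991 and 979 CPM. Without library 1, 22 genes were called, 21 of them lower and 1 higher, while 29% of all genes were called lower. Ccnb1, Cdc20, Tpx2, Espl1 and Smc2 were among those added, at -1.21, -1.09, -1.20, -1.77 and -1.26, and Ncapg was no longer called. The part of library 1's other differences in the result was not tested. Leaving out oil library 3 or CCl4 library 1 left 3 calls.

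None of the other anchor genes was called between CCl4 and oil organoids on all 9 libraries. Without oil library 1, Ccnb1, Cdc20, Kif11 and Tpx2 were called lower with CCl4. Ccnb1 read 0.279, 3.15 and 3.83 CPM with oil, 1.7, 1.04 and 1.81 CPM with CCl4 and 1.47, 2.26 and 2.88 CPM with extract. Cdk1 read 4.38, 6.64 and 7.7 CPM, then 9, 4.98 and 7.45 CPM, then 6.09, 8.09 and 9.07 CPM. Both genes' groups overlapped throughout. Top2a read 5.64, 17.5 and 19.3 CPM with oil, 11.9, 9.52 and 15.7 CPM with CCl4 and 12.4, 21.3 and 19.2 CPM with extract. Mki67 read 5.9, 17.1 and 20.8 CPM, then 11.3, 11.8 and 17.7 CPM, then 13.4, 21.6 and 23.1 CPM. In each case oil library 1 was the lowest of the 9. Foxm1 had the same form, at 0.877, 3.45 and 3.81 CPM, then 2.43, 1.46 and 2.99 CPM, then 1.97, 3.65 and 3.69 CPM. Bub1 read 0.179, 1.22 and 1.46 CPM with oil, 0.643, 0.417 and 1.24 CPM with CCl4 and 0.52, 1.59 and 1.65 CPM with extract. Cdc20 read 0.996, 3.41 and 4.22 CPM, then 1.6, 1.42 and 2.38 CPM, then 1.24, 2.62 and 3.16 CPM. These checkpoint and anaphase genes overlapped between all groups. Plk1 read 1.38, 3.71 and 4.54 CPM with oil, 1.68, 1.73 and 3.48 CPM with CCl4 and 2.38, 4.28 and 3.73 CPM with extract. Aurkb read 0.698, 2.34 and 2.16 CPM, then 1.39, 0.792 and 1.81 CPM, then 1.17, 2.29 and 1.84 CPM. The groups of both kinases overlapped too. Ndc80 read 0.12, 0.564 and 0.963 CPM with oil, 0.539, 0.333 and 0.764 CPM with CCl4 and 0.409, 1.16 and 0.765 CPM with extract. Tpx2 read 0.877, 4.52 and 5.31 CPM, then 1.97, 1.46 and 3.25 CPM, then 2.1, 4.53 and 4.38 CPM. These 2 also overlapped throughout, and oil library 1 was the lowest of the 9 for all 6 genes from Bub1 to Tpx2. Kif11 read 2.35, 5.45 and 6.78 CPM with oil, 3.94, 2.73 and 4.21 CPM with CCl4 and 4.29, 5.51 and 4.95 CPM with extract. For Kif11 every extract library lay above every CCl4 library, while oil overlapped both.

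Extract added to CCl4 organoids changed none of the 49 genes by the test. No gene of the table was called (0% of 14836), and none of the 49 had an unadjusted limma p under 0.05. The differences were positive for 45 of 49, with a median of 0.44, and negative for Pttg1, Sgo1, Birc5 and Spc25. Extract library 1 was the lowest of its group for 48 of the 50 genes. Against oil organoids, Spc25 was higher (0.71, limma adjusted p = 0.038), and Prc1 (-0.90, 0.03) and Incenp (-0.80, 0.0011) were lower, with 34.4% of all genes called and 17.2% called lower. All 3 stayed called on library size alone, where called genes split into 3363 higher and 2114 lower in place of 2557 and 2546. Without oil library 1 this count was 6, and it was 1 without oil library 2, extract library 1 or extract library 2.

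Of the 122 other cell-cycle genes, 16 were higher and 14 lower in CCl4 than in oil organoids (limma, adjusted p), 24.6% of the list beside 40.2% of all genes. Without oil library 1, 27 were higher and 36 lower, 51.6% beside 60.7%. The largest on 9 libraries were in G1 control: Ccnd2 and Ccnd1, the D cyclins that start the cycle, were lower by -2.53 ± 0.43 (limma adjusted p = 0.0026) and -2.47 ± 0.34 (adjusted p = 0.0011). Cdkn1a, the p21 inhibitor of Cdks, was higher by 1.08 ± 0.31 (limma adjusted p = 0.025), Cdkn2a was lower by -1.75, and Rbl1, the pocket protein p107 of the DREAM complex, was higher by 2.07. Rbbp4, a histone-binding subunit of MuvB complexes, was lower by -1.02. Without oil library 1 these were -3.11 for Ccnd2, -2.89 for Ccnd1, 1.47 for Cdkn1a, -2.06 for Cdkn2a, 2.60 for Rbl1 and -1.11 for Rbbp4, all still called. The libraries of Ccnd1 read 377, 882 and 935 CPM with oil, 101, 109 and 166 CPM with CCl4 and 150, 185 and 180 CPM with extract. Oil library 1 was the lowest oil library for Ccnd1 but lay above the other 6. In the spindle and kinetochore lists 3 of 21 and 7 of 30 genes were called, with Cenpm at -1.98, Stil at -0.99, Mad1l1 at -0.88 and Kif15 at 0.71 (-2.43, -1.09, -0.95 and 0.68 without oil library 1, all still called). None of the 122 was called for extract against CCl4 organoids, and 17 were higher and 13 lower for extract against oil (24.6% beside 34.4%), with Ccnd1 at -1.99 and Zwint at 0.90. Without oil library 1 these counts were 28 and 18 (37.7% beside 56.2%), with Ccnd1 at -2.41 and Zwint at 1.04, both called.

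The difference between liver and organoids was tested directly, on the 13116 genes tested in both tables. The CCl4 effect in liver exceeded that in organoids for 48 of 49 genes (limma, adjusted p), where 54.2% of genes were called and 26.9% called higher. The median difference of effects was 6.27, and without oil library 1 the count was again 48. The largest were Depdc1a at 9.18 ± 1.05, Melk at 8.47 and Ccnb1 at 8.12, and the smallest called were Aurka at 4.18, Birc5 at 4.17 and Spc25 at 2.61. Pttg1, at -0.46, was not called (limma adjusted p = 0.057). The extract effect, taken in CCl4 liver and in CCl4 organoids, was lower in liver for 43 of 49 genes, where 7.08% of genes were called and 4.67% called lower. Its median was -3.01, led by Depdc1a at -4.05 ± 1.05, Espl1 at -3.69 and Oip5 at -3.63, with Incenp at -2.04, Cenpa at -1.99 and Spc25 at -1.86 the smallest called. Depdc1a rests on 6, 4 and 21 reads in CCl4 organoids. It lost its call with a prior count of 0.5 and without certain single libraries, CCl4 liver library 1 among them. Espl1 lost its call without any 1 of the extract-treated liver libraries, and Cenpa without extract-treated liver library 3. With libraries scaled by size alone the counts of the 49 genes were 48 and 47, and the genes called split into 4851 higher and 1929 lower (3527 and 3577 on the authors' scaling) and into 98 higher and 1634 lower (316 and 612). Not called were Bub1 (-3.38, limma adjusted p = 0.073), Ccnb1 (-3.12, 0.13), Ccna2 (-3.12, 0.054), Ndc80 (-3.11, 0.059), Cdc25c (-2.74, 0.093) and Pttg1 (0.26, 0.49). The CCl4 effects have unlike controls, healthy mice in liver and mineral oil mice in organoids. The organoids were also grown in culture after the mice had received CCl4. Tissue and organoids differ further in cell types and in the route of the extract (given to the mouse or added in culture). Their tables were scaled separately. These differences cannot be told apart.

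**Figure D4:**
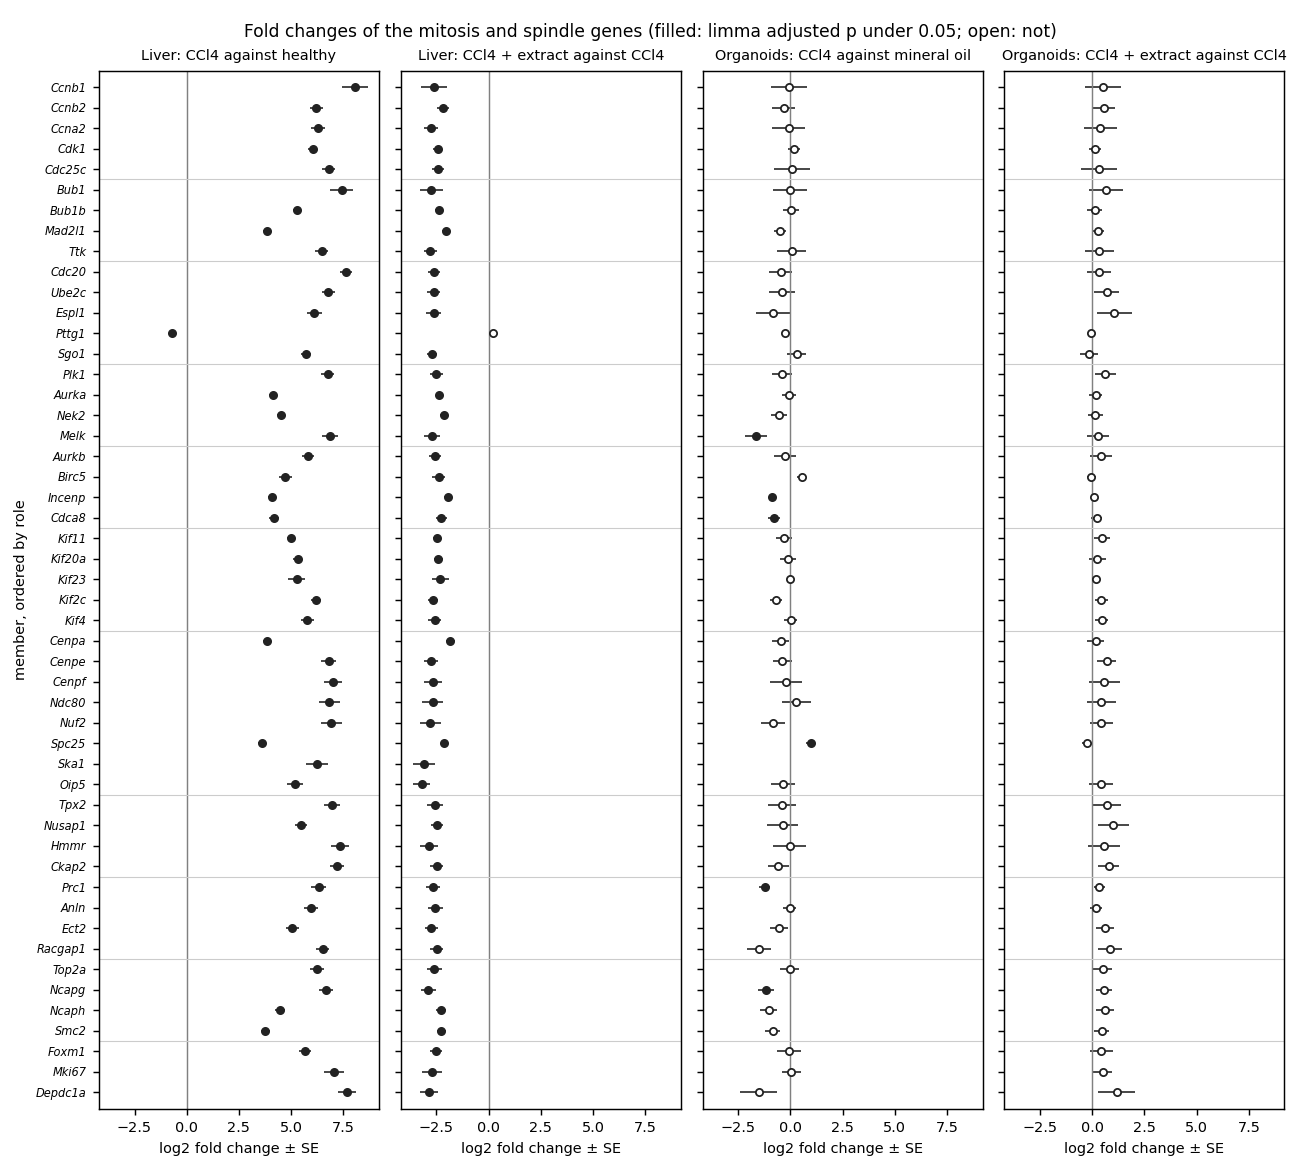
Log2 fold change of each gene with its standard error in 2 liver and 2 in vivo organoid comparisons, filled where the limma adjusted p was under 0.05 and open where it was not (Ska1 was not tested in organoids). The liver panels have medians of 6.15 (CCl4 against healthy) and -2.57 (extract against CCl4), and the organoid panels -0.32 and 0.44.

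In the in vitro model the 50 genes were lower in organoids given TGF-β1 than in untreated organoids in nearly every library, but no gene of the 50 passed the test on all 9 libraries. Only 0.0212% of the 14125 genes tested were called. For 49 of the 50 the difference was negative, with a median of -1.04, and 27 had an unadjusted limma p under 0.05. Every TGF-β1 library lay below every untreated library for 46 genes, against 13.3% of all genes tested. The exceptions were Pttg1, Incenp, Oip5 and Smc2. Summed over the 50 genes, the untreated organoids read 861.3, 1013 and 1370 CPM, those with TGF-β1 492.8, 642.9 and 534.1 CPM and those with TGF-β1 and extract 686.1, 531.3 and 271.4 CPM. Untreated library 3 was the highest of its group for 46 genes and extract library 3 the lowest of its group for 47.

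**Figure D5:**
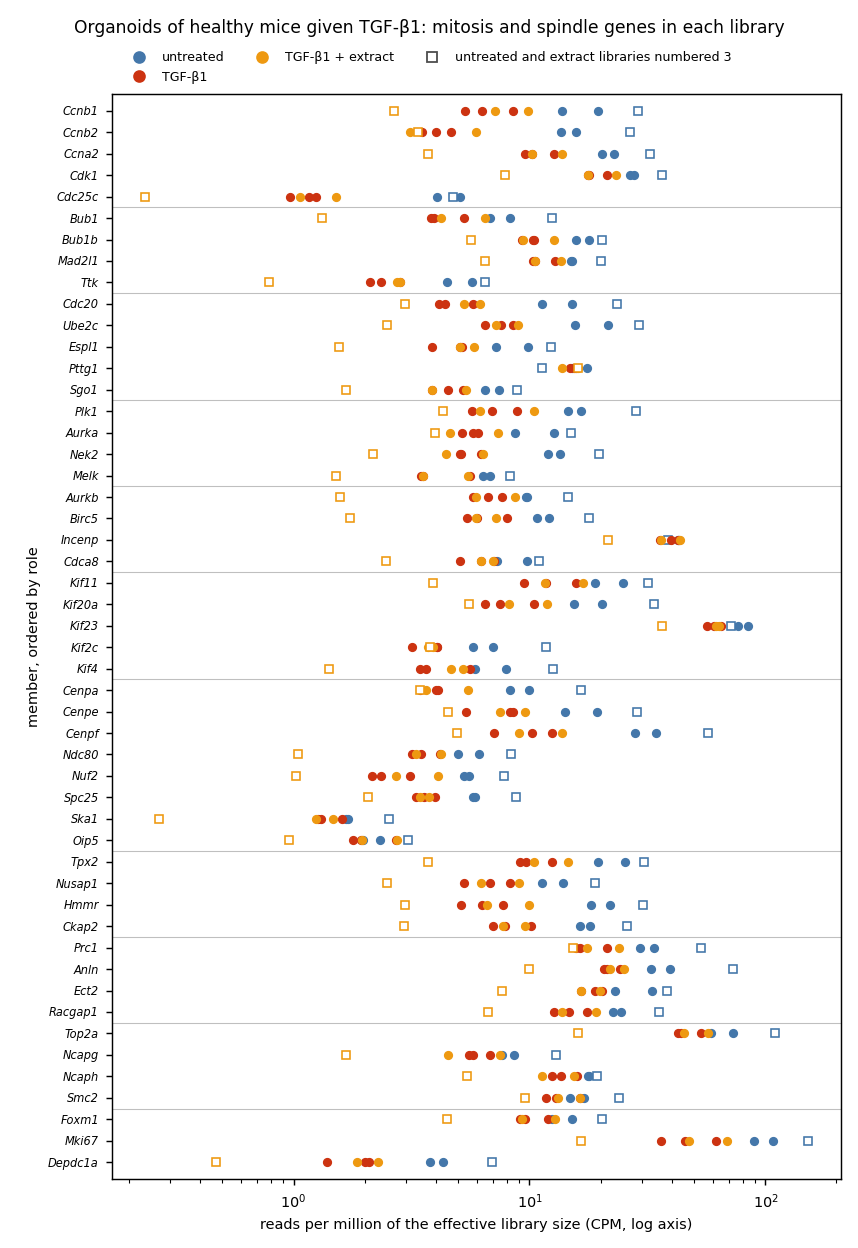
Level of the 50 genes, ordered by role, in the 9 libraries of the in vitro organoid model (CPM, log axis), with a point per library and open squares for the 2 libraries that stood apart. Untreated library 3 lies at the top of its group and extract library 3 at the bottom of its group, as for Mki67 at 151 and 16.6 CPM.

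Those 2 libraries also stood apart across all genes, with first principal components of -79.6 and -95.3 where the other 7 lay between 23.2 and 27.2. Cholangiocyte and progenitor markers summed to 13360 CPM in untreated library 3 (8388 and 8224 CPM in the other untreated libraries) and to 10038 CPM in extract library 3 (8383 and 8491 CPM). Macrophage markers summed to 109 CPM against 28.6 and 29.2 CPM, and to 37.9 CPM against 19 and 19.4 CPM, with Adgre1, C1qa and C1qb at 0 in all 9 libraries. Neutrophil markers summed to 9.12 and 6.53 CPM in these 2 libraries and to between 55.2 and 71.8 CPM in the other 7. That sum rests on few of the 8 markers: Mpo and Elane were at 0 in all 9 libraries. The median marker of this list was at 0.03 CPM or less in each group. The part of these differences in the result was not tested. All comparisons are therefore given again on the remaining 7 libraries.

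Without those 2 libraries, 43 of the 50 genes were called lower with TGF-β1 (limma, adjusted p), with a median of -0.81, where 23.4% of all genes were called and 11.9% called lower. The largest were Cdc25c (-1.98 ± 0.23, limma adjusted p = 6.4e-05), Ccnb2 (-1.85 ± 0.21, 7.4e-05), Cenpf (-1.68 ± 0.20) and Hmmr (-1.66 ± 0.18). Ccnb2 read 13.6, 15.7 and 26.6 CPM in untreated organoids, 3.51, 4.65 and 4.01 CPM with TGF-β1 and 5.95, 3.13 and 3.36 CPM with extract. Its untreated libraries were all above the rest with or without library 3, and on all 9 libraries the difference was -2.14 ± 0.32 (limma adjusted p = 0.095). The smallest called falls were Kif23 (-0.41), Mad2l1 (-0.43) and Foxm1 (-0.44). Not called were the condensin genes Ncapg, Ncaph and Smc2, the kinetochore genes Ska1 and Oip5, and Incenp and Pttg1. On the same 7 libraries 3 of 4 hepatocyte markers tested were lower with TGF-β1 (median -0.80), 1 of 2 macrophage markers was lower, and of 8 cholangiocyte and progenitor markers 2 were higher and 2 lower. Hepatocyte markers summed to 320 and 344 CPM in untreated libraries 1 and 2 and to 247, 239 and 260 CPM in the TGF-β1 libraries. Their part in the result was not tested.

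The anchor genes show the pattern by role. Ccnb1 read 13.7, 19.6 and 28.9 CPM in untreated organoids, 5.32, 8.49 and 6.3 CPM with TGF-β1 and 9.83, 7.17 and 2.66 CPM with extract. On 7 libraries it was lower with TGF-β1 by -1.31 ± 0.20 (limma adjusted p = 0.00043), and on 9 by -1.58 (0.26). Cdc20, the anaphase activator, went from 11.3, 15.2 and 23.5 CPM to 4.38, 5.74 and 4.13 CPM with TGF-β1 and 6.15, 5.28 and 2.98 CPM with extract, and on 7 libraries the TGF-β1 difference was -1.47 (limma adjusted p = 5.3e-05). Plk1 went from 14.6, 16.6 and 28.2 CPM to 5.69, 8.89 and 6.96 CPM, and read 10.4, 6.14 and 4.32 CPM with extract (-1.14 for TGF-β1 on 7 libraries, limma adjusted p = 0.0015). These 3 genes of entry and exit had no overlap between untreated and TGF-β1 libraries. Tpx2 went from 19.5, 25.3 and 30.7 CPM to 9.12, 12.5 and 9.7 CPM with TGF-β1 and 14.5, 10.5 and 3.72 CPM with extract (-1.10 for TGF-β1 on 7 libraries). Prc1 went from 29.3, 33.6 and 53.1 CPM to 15.7, 21.4 and 16.3 CPM and 23.9, 17.6 and 15.3 CPM (-0.83). Mki67 went from 89.5, 108 and 151 CPM to 36, 62 and 45.6 CPM and 69, 47.4 and 16.6 CPM (-1.07). In these 3 genes too every untreated library lay above all others. Kif11 read 19, 24.9 and 31.9 CPM untreated, 9.52, 15.8 and 11.7 CPM with TGF-β1 and 16.9, 11.6 and 3.9 CPM with extract (-0.85). Bub1 read 6.77, 8.27 and 12.5 CPM, then 3.95, 5.29 and 3.82 CPM, then 6.45, 4.23 and 1.32 CPM (-0.79). Ndc80 read 5, 6.09 and 8.31 CPM, then 3.19, 4.17 and 3.47 CPM, then 4.2, 3.31 and 1.04 CPM (-0.62). The TGF-β1 and extract libraries of these genes overlapped, and both lay below the untreated ones. Aurkb read 9.64, 9.76 and 14.5 CPM untreated, 5.75, 7.65 and 6.69 CPM with TGF-β1 and 8.68, 5.94 and 1.57 CPM with extract (-0.54). Top2a read 58.8, 72.8 and 110 CPM, then 42.7, 53.1 and 43.8 CPM, then 57, 45.3 and 16 CPM (-0.50). Foxm1 read 12.5, 15.2 and 20.2 CPM, then 9.08, 12 and 9.58 CPM, then 12.8, 9.3 and 4.47 CPM (-0.44). Of these 3, Foxm1 had 1 extract library inside the untreated range. All 13 anchor genes were called lower with TGF-β1 on 7 libraries. Cdk1 read 26.7, 27.6 and 36.4 CPM untreated, 17.7, 21.3 and 17.8 CPM with TGF-β1 and 23.2, 17.7 and 7.88 CPM with extract (-0.52).

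Extract given after TGF-β1 made no called difference from TGF-β1 alone. The labels give no harvest time for organoids given TGF-β1 alone, so time after TGF-β1 may also differ between these groups and was not tested. Of all 14125 genes 0% were called on 9 libraries, and 0% on 7, and none of the 50 had an unadjusted limma p under 0.05 on 9. The median difference was -0.32 on 9 libraries and 0.12 on 7. Against untreated organoids, TGF-β1 plus extract gave no called gene among the 50 on 9 libraries (limma, adjusted p, 0.0142% of all genes), with a median of -1.36 and 45 genes at an unadjusted p under 0.05. Every extract library lay below every untreated library for 45 genes, against 7.19% of all genes. With the replicate number as a block, 0 of the 50 and 0 genes in all were called, in place of 2 genes in all. On 7 libraries 32 of the 50 were called lower, with a median of -0.63, where 13.7% of genes were called and 7.89% called lower, and again 3 of 4 hepatocyte and 1 of 2 macrophage markers were lower. The 2 comparisons with untreated organoids share the untreated libraries, and those with TGF-β1 share the TGF-β1 libraries.

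None of the 122 other cell-cycle genes was called in the in vitro model on all 9 libraries. On 7 libraries 26 were lower and 8 higher with TGF-β1 (limma, adjusted p), 27.9% of the list beside 23.4% of all genes, among them 12 of 21 other spindle, centrosome and cytokinesis genes lower and none higher. Of 30 other centromere and kinetochore genes 3 were lower and 1 higher, and of 10 Cdk inhibitors and inhibitory kinases 5 were lower and 1 higher. For TGF-β1 plus extract against untreated organoids 18 were lower and 6 higher (19.7% beside 13.7%), and for extract against TGF-β1 none was called.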

How the data were processed

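The authors deposited 3 tables of log2 values per gene from stranded mRNA libraries made, per the labels' protocols, from TRIzol-extracted RNA with a TruSeq kit. Per the submitters' processing notes, mm10 was the genome used. The aligner, counter, annotation and scaling method are not named in the sources used here. Per the values themselves, the deposited log2 numbers are CPM with a prior count of 2 and a scaled library size: 100% of values came back as whole reads within 0.05 reads, with scaling factors of 0.854 to 1.217. CPM without the prior count was computed from those reads. Genes were tested where at least 3 libraries reached the CPM of 10 reads in the median library and the table held 15 or more reads. limma 3.58.1 (R 4.3.3, linear models with an intensity trend, two-sided) was fitted on the 9 libraries of each table, with Benjamini-Hochberg adjustment over all genes tested. The fit was tested on simulated data. Differences between liver and organoid effects were tested in 1 limma fit over both tables.

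The genes and lists were chosen with earlier results of these data known. The 7 cell-cycle lists hold 122 genes, and the 9 marker lists cover hepatocytes, cholangiocytes and progenitors, macrophages, stellate, sinusoidal endothelial, T and NK, B and plasma, neutrophil and erythroid cells. All 50 genes are described. Values are given in every library for 13 anchor genes of the 11 roles and for the largest and smallest called changes, and pathway lists by counts with up to 2 largest called genes. Alternatives were scaling by library size, no filter, a prior count of 0.5, a fit on the 2 groups compared, a replicate block, and leaving out each library or the 2 libraries named above. Same-numbered libraries deviated together only for TGF-β1 plus extract against untreated organoids (correlations 0.531, 0.583 and 0.717), from the data and not from a label that says what the numbers share. Deviations were taken from the mean of the 3 libraries of a group, and libraries 3 stood apart in both groups. The 3 correlations are therefore not independent and do not show that all 3 numbers pair. Promoter windows are RefSeq's. Some genes have no window in that table: Aurkb, Ccna2, Cdc25c, Foxm1, Incenp, Kif20a, Ska1 and Tpx2.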

Additional observations from a re-analysis of the deposited data

Results flagged for a closer look

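Effects of CCl4 and of the extract differed between liver and organoids, by a limma test of the difference itself. The treatments were not alike: the CCl4 controls were healthy mice in liver and mineral oil mice in organoids. The extract was given to the mouse or added in culture. For CCl4 the effect was higher in liver for 48 genes, and the values that led and closed the list were 9.18 (Depdc1a), 8.47 (Melk), 8.12 (Ccnb1), 4.18 (Aurka), 4.17 (Birc5) and 2.61 (Spc25) on the log2 scale. In the liver Depdc1a, Melk and Ccnb1 rose by 7.67, 6.84 and 8.06, and in organoids from CCl4 mice Melk was lower by -1.63. That organoid call was near the threshold and was lost in a fit on the 2 groups alone. For the extract the effect was lower in liver for 43 genes, with values of -4.05 (Depdc1a), -3.69 (Espl1), -3.63 (Oip5), -2.04 (Incenp), -1.99 (Cenpa) and -1.86 (Spc25). Of these genes Depdc1a, Espl1 and Cenpa lost their calls when certain single libraries were left out. In CCl4 organoids none of these genes was called with extract.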

How the results depend on the processing

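Liver counts moved little: leaving out 1 library at a time kept 50 called genes for CCl4 against healthy, 48 to 49 for extract against CCl4 and 49 to 50 for extract against healthy, and no direction reversed in any alternative run. Over all genes the extract against CCl4 count ranged from 1452 to 2902 and was at most 1863 without CCl4 library 1 or 3 or without any 1 of the extract libraries, and the differences between liver and organoid effects from 48 to 49 (CCl4) and from 29 to 43 (extract). Without 1 library the CCl4 against oil organoid counts ranged from 3 to 22 of the 49 genes and from 4260 to 9004 genes, with both upper values without oil library 1, and extract against oil from 1 to 6 and from 3207 to 8337, again upper without oil library 1, and at most 3230 genes without any 1 of the extract libraries. For TGF-β1 against untreated organoids leaving out 1 library gave 0 to 3 genes, and for TGF-β1 plus extract against untreated 0 to 1 of the 50 and 0 to 53 genes, both upper values without extract library 3. Without filtering, CCl4 against oil called 3 of the 50, and TGF-β1 against untreated and TGF-β1 plus extract against untreated called 0 genes. A fit on the 2 groups alone gave 3 of the 50 and 3803 genes for CCl4 against oil, 1 of the 50 for extract against oil, 3 of the 50 and 55 genes for TGF-β1 against untreated, and 0 genes for TGF-β1 plus extract against untreated, as did scaling by library size alone. Without untreated library 3 and extract library 3, TGF-β1 against untreated called 43 of the 50 and 3310 genes, and TGF-β1 plus extract against untreated 32 and 1941. With a replicate block, TGF-β1 against untreated called 1 gene in all and TGF-β1 plus extract against untreated 0, CCl4 against oil 7 of the 49, and the difference of extract effects 46. Other than in the comparison named in the processing summary, same-numbered libraries did not deviate together, so these blocked counts are not a paired analysis. The causes of these changes were not tested. At 45.1 M to 64.8 M reads a library, the depth leaves several genes of healthy liver at 0 to 3 reads, where fold changes depend on the prior count.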
